A study of Arabidopsis thaliana with 12 samples.

Results

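BRANCHED1 (BRC1) peaks that lay in the space between genes and close to one are described here: 1840 of the 4227 peaks in the deposited peak list (43.5%). A peak was a member when its midpoint fell in no gene locus of the deposited RNA tables on the 5 chromosomes and was at most 500 bp from the nearest locus edge. Of the other peaks, 627 had the midpoint inside a locus, 717 lay 500 to 1000 bp from the nearest locus, and 1043 lay beyond 1000 bp. The study profiled whole Arabidopsis thaliana seedlings aged 10 days, collected 5 hours after 10 uM estradiol was given on plates. RNA was sequenced from 3 libraries of the inducible line GFP-BRC1ind, in which estradiol switches on a fusion of BRC1 to green fluorescent protein (the induced line), and from 3 libraries of the knock-out brc1-2. Chromatin was immunoprecipitated with an anti-GFP antibody from the induced line, and the peak list is, by its name, the intersection of anti-GFP libraries 1 and 2. The brc1-2 seedlings carry the same estradiol label, so the RNA groups differ by genotype and transgene together. Input libraries and anti-GFP library 3 were not analysed here.

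BRC1 is a plant transcription factor of the TCP family that acts in axillary buds, where it holds back branch outgrowth. Buds in which BRC1 is active are known for abscisic acid signalling and for low cell division. Transcription factors often bind the short intergenic space next to a gene's start, and the same binding can then face a gene on either side. The labels do not name the promoter behind the inducible system, nor say whether the line descends from a single plant. FPKM is a fragment count scaled by length and sequencing depth, taken here per assembled piece and added over the pieces of a gene. BRC1 itself was measured at 3370, 3421 and 3625 FPKM in the induced line, against 1.34, 1.66 and 2.2 FPKM in brc1-2. The libraries of both groups therefore followed their labels, and the induced level stood 10.32 ± 0.12 (SE) higher on the log2(FPKM + 1) scale (limma adjusted p = 1.79e-06). No member peak lay beside the BRC1 locus.

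Member peaks were compact. Their median width was 390 bp, with quartiles of 318 and 476 bp and a range of 1 to 1197 bp, and only 15 were narrower than 100 bp and 7 wider than 1000 bp. Peaks inside loci had a median width of 382 bp, those at 500 to 1000 bp 422 bp and those beyond 1000 bp 410 bp. The members covered 762 kb in all. They made up 41.3% of the peaks on chromosome 1, 42.7% on chromosome 2, 48.4% on chromosome 3, 45.3% on chromosome 4 and 41.2% on chromosome 5. The median width per chromosome ran from 381 to 400 bp, so no chromosome stood apart in width.

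Most members sat within 200 bp of a gene. The median distance from midpoint to nearest locus edge was 186 bp, with quartiles of 106 and 305 bp. By distance to the nearest locus, 431 members (23.4%) lay at up to 100 bp, 555 (30.2%) at 100 to 200 bp, 382 (20.8%) at 200 to 300 bp, 274 (14.9%) at 300 to 400 bp and 198 (10.8%) at 400 to 500 bp. The median width was 366 bp in the nearest group and 417 bp in the farthest. In 1023 members (55.6%) the peak interval itself reached into a locus although its midpoint did not.

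**Figure D1:**
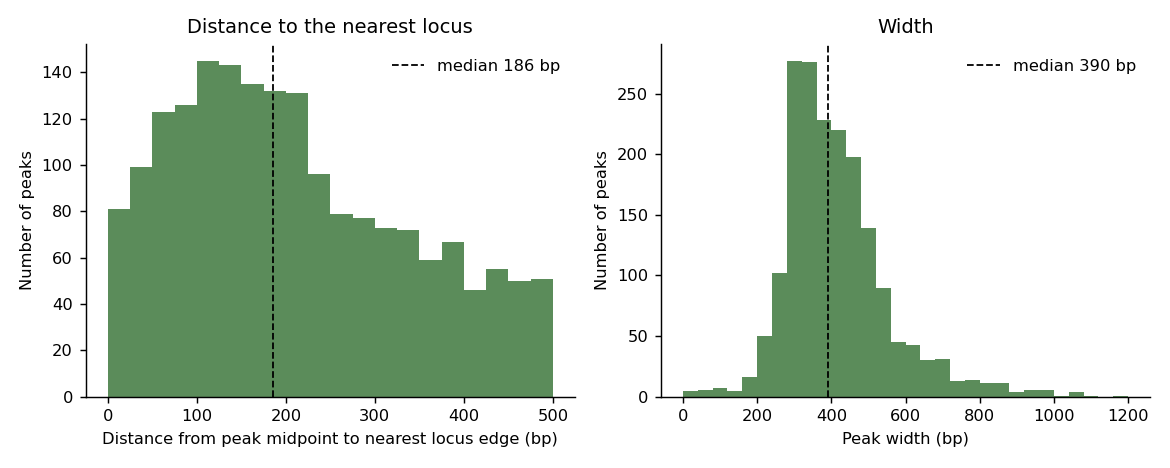
Histograms of the 1840 member peaks (number of peaks on the y axes) by distance from peak midpoint to the nearest locus edge and by peak width, both in bp, with dashed lines at the medians. Distances crowd around the median of 186 bp and widths around 390 bp, with a long tail of wide peaks.

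The members flanked 2167 annotated genes in 2254 peak and gene pairs. A gene lay within 500 bp on both sides of 396 members (21.5%) and on 1 side of 1435, and 9 members had only an assembled locus beside them. The space between loci had a median length of 426 bp where genes lay on both sides and of 1886 bp over the other members, the 9 included. With genes within 500 bp on both sides the space cannot exceed 1000 bp, so the contrast follows in part from the split. Of the genes, 2081 had 1 member peak beside them, 85 had 2 and 1 had 3. A RefSeq entry was found for 2135 of the genes, of which 2035 were protein coding, 24 encoded transfer RNAs, 19 long non-coding RNAs and 8 microRNAs. The tables carry no strand, so whether a peak lay before the start or after the end of a gene could not be told.

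Among genes beside member peaks, a larger share was higher in the induced line than over all genes. Of the 2167 genes, 201 were listed in no library and 37 failed the filter on low values (FPKM below 1 in more than 3 of the 6 libraries), which left 1929 tested. Of these, 467 (24.2%) were higher in the induced line, where 7.37% of all 21038 tested genes were. A further 151 (7.83%) were lower, where 8.86% of all tested genes were. The lower count is thus near its background. A gene counts as higher or lower here when limma's adjusted p was under 0.05. At least 2-fold rises were found in 161 flanking genes (8.35%), where 1.64% of all tested genes had one, and at least 2-fold falls in 32 (1.66%), where 2.86% did. All 618 flanking genes that passed the test had groups that did not overlap, and over all tested flanking genes the groups were apart in 1045 (54.2%), where they were apart in 38.9% of all tested genes.

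The median difference over the flanking genes was 0.16 on the log2(FPKM + 1) scale, with quartiles of -0.13 and 0.46, beside 0.04 over all tested genes. Fitted differences spanned -2.46 to 5.1, and 65.9% were above 0. The scale understates the change of genes with low values, and a fitted difference depends on the added 1 where a group is not listed. The median level of the flanking genes was 19.8, 19.4 and 19.9 FPKM in the induced line, against 17.1, 16.4 and 16.7 FPKM in brc1-2, while over all tested genes it was 13.6 to 14.1 FPKM in the induced line, against 13.5 to 14.3 FPKM in brc1-2. Of the genes that rose, 13 were listed in no brc1-2 library and so passed the filter only through the induced line. Of those that fell, 3 were listed in no induced library and so passed it only through brc1-2. In both directions together, 26 called genes were unlisted in at least 1 library. Counts depended on the libraries. Without induced library 1, 2 or 3 the number of higher genes was 286, 308 or 306 and of lower genes 57, 62 or 79, and without brc1-2 library 2 there were 97 lower genes. In the fits without induced library 1, 2 or 3, 15.0%, 16.2% and 16.1% of flanking genes were higher, where 3.43%, 3.88% and 4.09% of all tested genes were, and 2.99%, 3.26% and 4.15% were lower, where 4.27%, 4.45% and 5.56% of all tested genes were. Without brc1-2 library 2, 5.05% were lower, where 5.54% of all tested genes were. Nothing in the labels says that replicates came from separate cultures, so the p-values measure the spread between these libraries.

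The share of genes that rose was largest next to the peak. At a midpoint distance of up to 100 bp, 153 of 406 tested genes were higher (37.7%, exact 95% binomial interval 33.0 to 42.6) and 18 lower (4.43%). At 100 to 200 bp 153 of 569 were higher (26.9%, 23.3 to 30.7), at 200 to 300 bp 91 of 456 (20.0%, 16.4 to 23.9), at 300 to 400 bp 47 of 319 (14.7%, 11.0 to 19.1), and at 400 to 500 bp 51 of 246 (20.7%, 15.8 to 26.3). The share thus fell at each step up to 400 bp, but the intervals of neighbouring groups overlap at every step except the first. The share that was lower was 8.26%, 7.02%, 10.3% and 10.2% in the 4 farther groups. The median log2 difference was 0.24 nearest the peak and 0.06 at 400 to 500 bp. A gene with several member peaks counts once in each distance group it falls in, and the intervals cover counting error only. Without induced library 1 the share of higher genes was 24.9% at up to 100 bp and 9.46% at 300 to 400 bp, where 3.43% of all tested genes were higher in that fit.

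**Figure D2:**
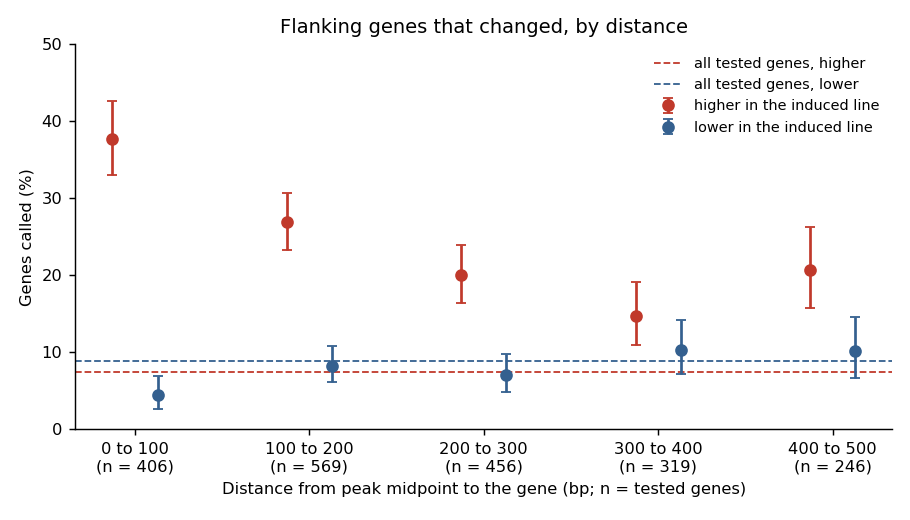
Percent of tested flanking genes higher and lower in the induced line (y axis) by distance from the peak midpoint to the gene edge in bp (x axis), with exact 95% binomial intervals, and the background over all tested genes. Higher genes make up 37.7% at up to 100 bp and 14.7% at 300 to 400 bp, above the background of 7.37% in every group.

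The share that rose also differed with whether the peak interval reached the gene. Where a member's interval reached into the gene, 323 of 991 tested genes were higher (32.6%) and 62 lower (6.26%). Where it ended short of the gene, 144 of 938 were higher (15.4%) and 89 lower (9.49%). Distance differs between these sets, with a median of 118 bp for genes reached and 310 bp for the others. Within 200 bp the shares that were higher were 32.7% of 855 genes reached and 18.6% of 113 not reached. Beyond 200 bp they were 31.6% of 136 and 14.9% of 825. Distance still differed inside these ranges. The medians for genes reached and not reached were 105 and 178 bp within 200 bp, and 246 and 329 bp beyond it. Whether an interval reaches a gene follows from distance and width together, so the split is not separate from either. Over all tested genes 7.37% were higher and 8.86% lower. The difference between the sets was not tested.

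Wider peaks had more rising genes beside them. With members split at the quartiles of width, among nearest genes 21.1% were higher beside the narrowest width class of members (up to 318 bp), 22.5% in the next, 27.9% in the next and 36.8% beside the widest class (above 476 bp). Over all tested genes 7.37% were higher. Rises of at least 2-fold ran in the same order, from 4.23% beside the narrowest to 16.7% beside the widest class, where 1.64% of all tested genes had one. The lower genes ran in reverse order, with 11.2%, 7.75%, 7.21% and 6.37%. The widest class lay farther from its genes, at a median of 223 bp against 174 bp for the narrowest. At up to 200 bp, 40.2% of genes were higher beside wider members and 26.5% beside narrower ones, split at the median width, and at 200 to 500 bp 24.9% and 15.0% were. These differences were not tested.

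The widest member, 1197 bp at chr2:18819603-18820799 on TAIR10, the build named in the submitters' processing notes, lay 41 bp from TCP9, which encodes another TCP factor. TCP9 stood at 19.4, 21.9 and 22.1 FPKM in the induced line, against 5.69, 5.96 and 7.1 FPKM in brc1-2. The groups were far apart, by 1.61 ± 0.10 on the log2(FPKM + 1) scale (SE, limma adjusted p = 0.000775). The long non-coding gene AT2G45685 overlaps TCP9 and also rose, by 1.33, but strand use in counting is not given in the sources used here, so reads of the pair cannot be told apart. The next widest, 1110 bp at chr4:10336220-10337329, lay 430 bp from OFP5, an OVATE family gene, whose 9.3, 9.32 and 9.71 FPKM in the induced line stood against 3.27, 8.08 and 2.57 FPKM in brc1-2 without passing the test (limma adjusted p = 0.107). The 8.08 FPKM of brc1-2 library 2 came from 92 fragments, where brc1-2 libraries 1 and 3 had 206 and 133. OFP5 passed without brc1-2 library 2 (1.42, limma adjusted p = 0.00656) and with length-weighted pieces (1.33, limma adjusted p = 0.00128). The third, 1076 bp at chr3:23291427-23292502, lay 478 bp from GID1B, a gibberellin receptor, which had 20.7, 22.9 and 23.3 FPKM in the induced line, against 7.59, 8.59 and 9.19 FPKM in brc1-2. GID1B rose by 1.3 ± 0.09 (SE, limma adjusted p = 0.00103) and had a second member, 647 bp wide, 165 bp from its other end.

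At the narrow end, a member of 1 bp at chr3:21830968-21830968 and one of 17 bp at chr3:4013754-4013770 were the narrowest, the list being an intersection in which a width is that of the stretch shared by both anti-GFP libraries. The first lay beside PIL6, a phytochrome-interacting factor also called PIF5 and the only gene with 3 member peaks, at 50, 219 and 460 bp. PIL6 had 35.0, 27.5 and 34.9 FPKM in the induced line, against 44.9, 36.8 and 42.8 FPKM in brc1-2. The groups did not overlap, but the difference of -0.35 did not pass (limma adjusted p = 0.12). SAP5, a zinc finger gene, and AT3G12640 beside the 17 bp member also did not pass, at 0.30 and 0.28. At the limit of the rule, the nearest genes of 2 members at 500 bp, PBC2 and OXS2, and of 2 peaks just outside at 501 and 502 bp, CPUORF47 and AT2G31740, differed by 0.18, -0.11, 0.38 and 0.12.

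Members between neighbouring genes allowed the nearer and the farther gene to be set side by side. Both genes were tested at 301 of the 396 such members, where over all 396 the nearer gene lay at a median of 133 bp and the farther at 285 bp. The nearer gene was higher at 86 members (28.6%) and lower at 17 (5.65%). The farther gene was higher at 30 (9.97%) and lower at 20 (6.64%), shares close to the 7.37% higher and 8.86% lower over all tested genes. Exactly 1 of the genes rose at 100 members, the nearer in 78 and the farther in 22. Both genes passed the test at 16 members, in the same direction at 13 of them and in opposite directions at 3, and at 164 neither did. Without induced library 1, 2 or 3 the farther gene was higher at 11, 14 or 16 members and the nearer at 55, 56 or 59. In those fits 3.43%, 3.88% and 4.09% of all tested genes were higher. The pairs tested in those fits were not counted.

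**Figure D3:**
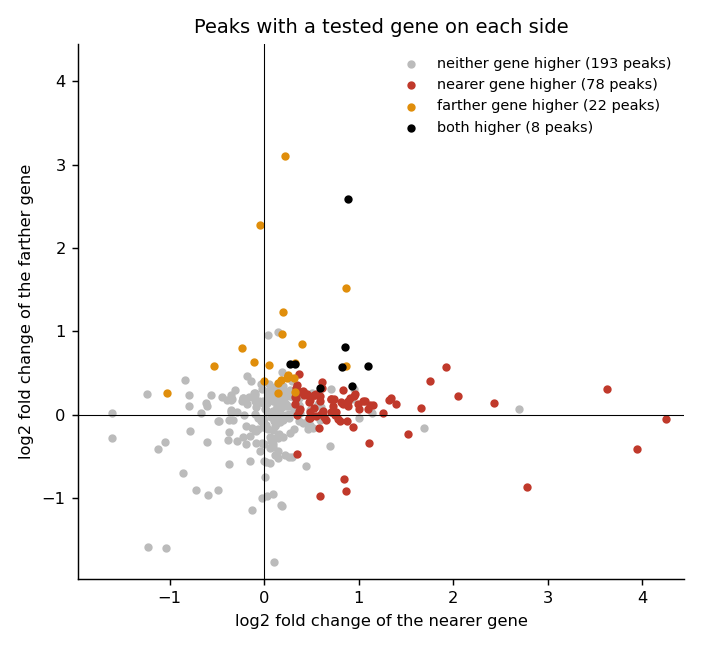
Log2(FPKM + 1) difference, induced line minus brc1-2, of the farther gene (y axis) against the nearer gene (x axis) at the 301 member peaks with a tested gene on both sides, each point 1 peak, coloured by which gene was higher by limma's test. Points spread along the x axis to the right, with the nearer gene higher at 86 peaks and the farther at 30.

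The peak at chr5:23501060-23501599 stood between TIL and RR18. TIL, a temperature-induced lipocalin, 120 bp away, had 172, 196 and 175 FPKM in the induced line, against 87.5, 96.5 and 110 FPKM in brc1-2, a log2 difference of 0.88 (limma adjusted p = 0.00457). RR18, a response regulator of cytokinin signalling 455 bp away, had 4.99, 4.31 and 5.92 FPKM in the induced line and was listed in no brc1-2 library, so it passed the filter only through the induced line. A second member, at chr5:23504124-23504492, lay 164 bp from the other end of RR18. At chr1:25238005-25238517, AT1G67360 rose by 1.10 and the long non-coding gene AT1G67365 by 0.59. The call of AT1G67365 was lost without induced library 1 or 2 or any brc1-2 library, at differences of 0.50 to 0.61.

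Pairs that fell together included small auxin-up RNA genes. Beside the peak at chr4:18125585-18126076, AT4G38840 had 22.1, 23.8 and 23.7 FPKM in the induced line, against 73.8, 49.6 and 46.9 FPKM in brc1-2, and SAUR15 had 2.41, 3.88 and 3.09 FPKM in the induced line, against 14.8, 9.32 and 10.3 FPKM in brc1-2. The groups were apart in both genes, with differences of -1.22 and -1.59 (limma adjusted p = 0.0078 and 0.00607). At chr2:18323039-18323272, AT2G44370 and AT2G44380 fell by 1.04 and 1.59 on the log2 scale. The sequences of these neighbours are not compared here, and members of multigene families can share reads.

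Opposite directions were found at chr5:1767343-1767850, between the cytokinin glucosyltransferase genes UGT76C1 and UGT76C2. UGT76C1, at 42 bp, had 12.0, 13.3 and 12.7 FPKM in the induced line, against 8.25, 7.67 and 8.21 FPKM in brc1-2. UGT76C2, at 141 bp, had 7.12, 7.79 and 7.74 FPKM in the induced line, against 18.2, 14.7 and 14.9 FPKM in brc1-2. UGT76C1 was thus higher by 0.60 and UGT76C2 differed by -0.98 (limma adjusted p = 0.00478 and 0.00303). At chr5:23483187-23483659, LRL3, a root hair transcription factor gene at 122 bp, differed by -1.03 and AT5G58005 at 257 bp by 0.27. The call of AT5G58005 was lost without any 1 of the 6 libraries, at differences of 0.23 to 0.29.

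The 10 largest rises among genes with at least 5 FPKM in each induced library came to genes 8 to 425 bp from a peak, ranked by the difference on the log2(FPKM + 1) scale. AT2G38905, 90 bp from the peak at chr2:16244399-16244788, had 34.6, 37.0 and 28.7 FPKM in the induced line, from 111, 126 and 135 fragments, and was listed in no brc1-2 library. AT5G05220, AT1G75600 and AT3G15280 were likewise listed in no brc1-2 library, and had 6.52 to 12.5 FPKM in the induced line. These 4 passed the filter only through the induced line, and their differences and rank depend on the value added before taking logs, so no fold is given. With 5 added in place of 1, for example, the difference of AT1G75600 was 1.39 and that of AT3G15280 was 1.34. AT1G19115 had 12.5, 13.4 and 37.8 FPKM in the induced line, against 1.05, 0 and 0 FPKM in brc1-2, where 0 means not listed. The induced values came from 348, 342 and 453 fragments, and induced library 3 had the most fragments in all of the induced libraries. The difference of AT1G19115 was 3.95, and 3.59 when the pieces of a gene were averaged by length. With 5 added in place of 1 it was 2.17. AT1G19115 reached an FPKM of 1 only in library 1 of brc1-2, so it too needed the induced line to pass the filter.

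The other large rises had genes of known function. LEA4-5, a late embryogenesis abundant protein that protects cells on drying, had 28.2, 31.9 and 28.3 FPKM in the induced line, against 3.11, 0 and 0 FPKM in brc1-2, with its peak 95 bp away at chr5:2090240-2090812. BETA-OHASE 2, a beta-carotene hydroxylase on the route to abscisic acid precursors, had 74.4, 78.0 and 69.5 FPKM in the induced line, against 4.54, 3.85 and 7.63 FPKM in brc1-2. The groups were far apart, by 3.61 ± 0.21 on the log2(FPKM + 1) scale (SE, limma adjusted p = 0.000646), and the peak, at chr5:21336912-21337500, reached into the gene. UGT79B7, a glycosyltransferase, had 52.4, 54.1 and 53.8 FPKM in the induced line, against 3.8, 3.13 and 2.73 FPKM in brc1-2, a difference of 3.70 ± 0.10 (SE, limma adjusted p = 0.000106). ZF14, a transporter of the MATE family, stood only 8 bp from the midpoint of its peak, at chr1:21652738-21653262. ZF14 had 31.2, 30.9 and 37.1 FPKM in the induced line, against 2.36, 2.54 and 5.4 FPKM in brc1-2, and SAG29, a SWEET sugar transporter linked with senescence, had 33.5, 42.5 and 21.1 FPKM in the induced line, against 6.37, 2.33 and 1.73 FPKM in brc1-2. Their differences were 3.00 and 2.98 (limma adjusted p = 0.00183 and 0.00819).

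**Figure D4:**
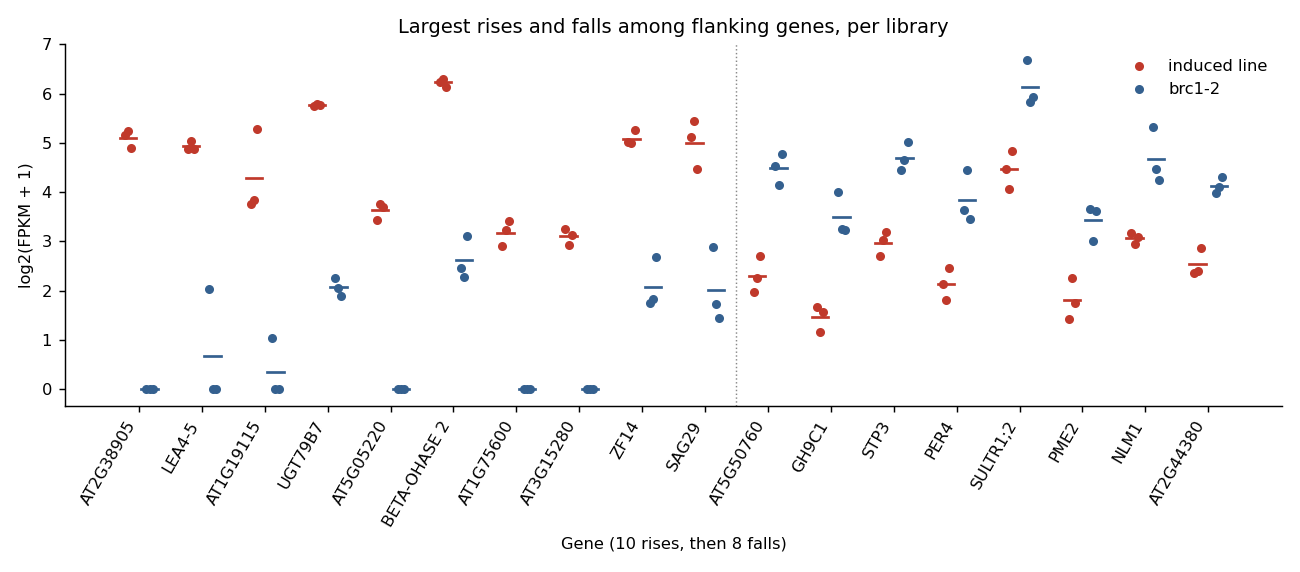
Level on the log2(FPKM + 1) scale (y axis) of the 10 genes that rose most and the 8 that fell most beside member peaks, each point 1 library and each bar a group mean, with the induced line left of brc1-2. The genes were chosen so that the groups do not overlap, and points at 0 are genes not listed in that library.

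The 8 largest falls, by the same rule with at least 5 FPKM in each brc1-2 library, lay 125 to 323 bp from a peak. AT5G50760 had 2.91, 3.78 and 5.47 FPKM in the induced line, against 22.1, 16.8 and 26.5 FPKM in brc1-2. SULTR1;2, a high-affinity sulfate transporter of roots, had 21.3, 15.7 and 27.6 FPKM in the induced line, against 101, 55.9 and 59.7 FPKM in brc1-2. STP3, a monosaccharide transporter, had 5.55, 7.13 and 8.13 FPKM in the induced line, against 20.9, 24.0 and 31.2 FPKM in brc1-2. The rule chose genes with groups apart, and the differences were -2.18, -1.68 and -1.73 (limma adjusted p = 0.0037, 0.0141 and 0.00352). GH9C1, a cellulase family gene, PER4, a class III peroxidase, PME2, a pectin methylesterase, NLM1, an aquaporin family gene, and AT2G44380 fell, with log2 differences of -2.04 to -1.59. The calls of PER4 and NLM1 were lost without induced library 1 (-1.71 and -1.66) or 2 (-1.55 for both), and that of SULTR1;2 without induced library 1 (-1.69).

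The iron uptake genes FRO2 and IRT1, used here with the auxin carrier PIN2 as root markers, fell as well. None of these root markers had a member peak beside it. The summed level of 3 root markers (FRO2, IRT1 and PIN2) was 73.6, 66.6 and 61.7 FPKM in the induced line, against 265, 322 and 471 FPKM in brc1-2, and PIN2 did not pass (-0.58, limma adjusted p = 0.168). Most of that sum came from IRT1 and FRO2, with brc1-2 means of 242 and 92.5 FPKM, against 18.0 FPKM for PIN2. The sum of 3 leaf markers (RBCS1A, LHCB1.3 and CAB3) was 23919, 28855 and 28314 FPKM in the induced line, against 23238, 25914 and 32340 FPKM in brc1-2, and none of the 3 passed the test. The part of these markers in the falls was not tested, and in whole seedlings fewer cells of a type and less RNA per cell cannot be told apart.

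Of 114 genes in 7 lists, drawn up with earlier results of these data known, 41 lay beside a member peak and 38 of those were tested. Among all 32883 annotated loci, 2167 lay beside a member. In all, 21 were higher, 3 lower and 14 did not pass. Over the 7 lists as a whole, 36 of 106 tested genes were higher and 11 lower, and over all tested genes 7.37% were higher and 8.86% lower.

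Abscisic acid genes were beside members most often, 14 of 23, and 10 of the 13 tested rose and none fell, while over the whole list 13 of 21 tested genes rose and 1 fell. NCED3 acts in synthesis of the hormone and CYP707A enzymes break it down. Clade A phosphatases hold its signalling in check, and it acts through the bZIP factors ABF and ABI5. The median difference of the 13 tested genes was 1.08. ABF3 had 52.9, 49.6 and 55.9 FPKM in the induced line, against 14.9, 13.4 and 13.3 FPKM in brc1-2, with its peak at chr4:16295090-16295662 reaching into the gene from 54 bp. ABI5 had 5.77, 6.3 and 5.89 FPKM in the induced line, against 2.58, 2.35 and 1.99 FPKM in brc1-2. The groups were apart in both, by 1.85 ± 0.08 and 1.08 ± 0.12 (SE, limma adjusted p = 0.000247 and 0.0038), while ABF1, 24 bp from its peak, differed by only -0.08.

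Genes for phosphatases, for AFP proteins and for breakdown of the hormone also lay beside members. Of the phosphatase genes, HAB1 rose by 1.15, PP2CA by 0.91 and HAB2 by 0.36, and HAI2, with a member at each end, was not tested. AFP1, AFP2 and AFP3, which bind ABI5 and repress it, rose by 2.40, 1.32 and 1.76, although AFP1 lay 499 bp from its peak, just inside the limit. CYP707A1, a hydroxylase that breaks the hormone down, had 39.1, 35.9 and 42.7 FPKM in the induced line, against 10.2, 7.21 and 9.97 FPKM in brc1-2. It rose by 2.00 ± 0.14 (SE, limma adjusted p = 0.00107), whereas CYP707A3 (-0.17) and CYP707A4 (0.13) did not pass. NCED3, the rate-limiting enzyme of synthesis, had 4.24, 4.04 and 5.35 FPKM in the induced line, against 2.05, 1.22 and 2.45 FPKM in brc1-2, a rise of 0.95 (limma adjusted p = 0.032). Its call was lost without any library but brc1-2 library 3 (0.76 to 1.01) and with quantile normalization (1.09, limma adjusted p = 0.067), that of PP2CA without induced library 1 (0.91), and that of HAB2 without any induced library or brc1-2 library 2 (0.34 to 0.38).

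Genes of dehydration and cold response, which encode mostly protective hydrophilic proteins, rose in 5 of 6 tested cases, with a median of 1.46, and in 9 of 16 over the whole list. COR47, a dehydrin, had 1120, 1235 and 1239 FPKM in the induced line, against 415, 436 and 539 FPKM in brc1-2, with its peak midpoint 30 bp away. RD29A (LTI78 in RefSeq) and RD29B (LTI65) are neighbours on chromosome 5 and each had a member of its own, at chr5:21240447-21240944 and chr5:21236730-21237165. RD29A had 234, 260 and 273 FPKM in the induced line, against 84.3, 84.2 and 93.9 FPKM in brc1-2, and RD29B 9.09, 10.8 and 10.5 FPKM in the induced line, against 4.04, 1.56 and 1.54 FPKM in brc1-2. They rose by 1.53 and 1.79 (limma adjusted p = 0.00056 and 0.0113), and the call of RD29B was lost without induced library 2 (1.75). KIN2 rose by 1.02, but reads may be shared with its near-identical copy KIN1. GolS2 (0.77) did not pass and EM1, a seed protein, was listed in no library.

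All 3 flanking genes of the G-box and HD-ZIP factors rose, GBF3 by 1.37, HB7 by 1.35 and GBF2 by 0.80, while over the whole list 4 of 13 tested genes rose and 2 fell. GBF factors bind the G-box that abscisic acid factors also use, and HB7 is a homeodomain factor induced by the hormone. HB7, 11 bp from its peak midpoint, had 32.0, 33.0 and 38.0 FPKM in the induced line, against 22.8, 9.44 and 9.67 FPKM in brc1-2, and its call was lost without any library but brc1-2 library 1 (1.14 to 1.39). Among clock genes RVE1 rose by 0.96 and the other 4 beside a member did not pass, namely LHY (0.93), CCA1 (0.59), TOC1 (0.01) and LUX (-0.34). The call of RVE1 was lost without any induced library (0.89 to 1.01), and LHY and CCA1 passed when the pieces of a gene were averaged by length (1.35 and 0.83, limma adjusted p = 0.00473 and 0.0478).

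Of the branching genes, D14, the receptor of strigolactone, rose by 0.91 ± 0.07 (SE, limma adjusted p = 0.0013), with 58.3, 65.2 and 63.3 FPKM in the induced line, against 33.8, 31.1 and 33.2 FPKM in brc1-2. MAX1, an enzyme of strigolactone synthesis, rose by 0.56, SMXL7, a repressor that D14 helps degrade, did not pass (-0.09), and NAP was not tested. The call of MAX1 was lost without any library but brc1-2 library 1 (0.45 to 0.61). MCM4, of the replication genes, did not pass (0.37).

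Of the 7 tested auxin response genes beside a member, IAA1, IAA2 and IAA19 fell and the other 4 did not pass. Over the whole list 7 of 18 tested genes fell and none rose. These encode Aux/IAA proteins, which auxin both induces and marks for breakdown. IAA2 had 38.4, 48.8 and 50.3 FPKM in the induced line, against 68.9, 70.8 and 89.7 FPKM in brc1-2, and IAA19 5.47, 5.13 and 5.72 FPKM in the induced line, against 11.0, 7.86 and 8.64 FPKM in brc1-2. The log2 differences of IAA1, IAA2 and IAA19 were -0.70, -0.73 and -0.65 (limma adjusted p = 0.0117, 0.0243 and 0.0241). Of the other 4, IAA4 differed by 0.60, IAA3 by -0.22, IAA14 by -0.13 and IAA16 by -0.40 without passing. IAA4 passed as higher with an FPKM filter of 5, with quantile normalization, with length-weighted pieces, with the replicate number as a term and without brc1-2 library 1 (0.58 to 0.75, limma adjusted p = 0.0181 to 0.0448), and IAA16 passed as lower with quantile normalization (-0.41, limma adjusted p = 0.0483). All 3 calls were lost without induced library 1 (-0.61 to -0.68), those of IAA2 and IAA19 also without induced library 2 (-0.78 and -0.61), that of IAA2 without brc1-2 library 2 (-0.78), and that of IAA19 without induced library 3 or brc1-2 library 3 (-0.68 each).

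**Figure D5:**
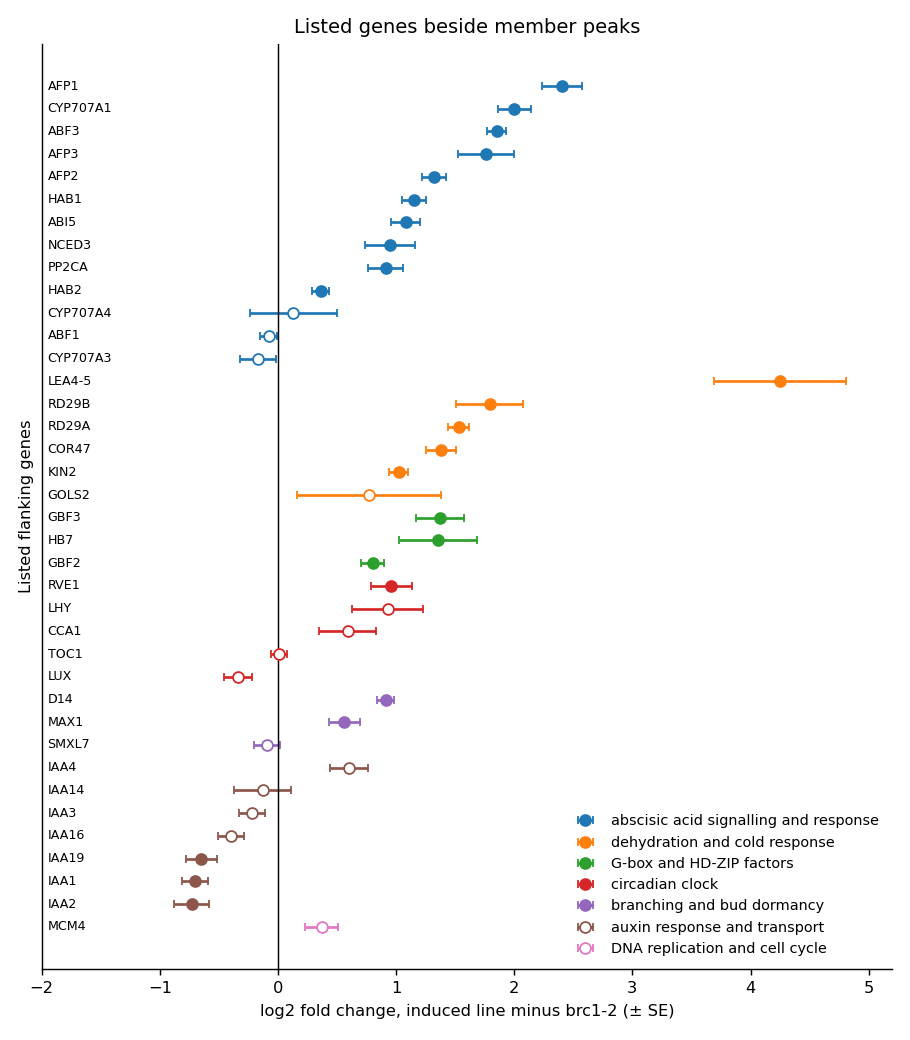
Log2(FPKM + 1) difference, induced line minus brc1-2 (x axis), of the tested listed genes beside member peaks, grouped by list (y axis, coloured by list), with bars of 1 SE and open circles for genes that did not pass the test. Abscisic acid, dehydration and G-box genes lie mostly to the right, with 10 of 13, 5 of 6 and 3 of 3 higher, while the 3 auxin genes that fell lie to the left.

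The share of nearest genes that were higher was close for members and for peaks inside loci, and smaller for peaks farther out. Of tested nearest genes, 26.8% of 1599 beside members were higher, against 25.4% of 508 with a peak inside, 16.3% of 572 at 500 to 1000 bp and 16.7% of 718 beyond 1000 bp. Lower genes made up 8.13% beside members, against 8.07%, 12.4% and 15.0% in the same order. Over all tested genes, 7.37% were higher and 8.86% lower. The median difference was 0.17 beside members, against 0.13, 0.06 and 0.02. Of the 1929 flanking genes, 195 also had a peak of another class within 1000 bp, and 67 of these (34.4%) were higher, against 400 of the other 1734 (23.1%). Differences between classes were not tested.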

How the data were processed

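The authors deposited 1 RNA table per library with FPKM values (a Cufflinks layout, per the file headers) and 1 peak list of start and end positions without score or height. The submitters' processing notes name Bowtie, TopHat, Cuffdiff, Bowtie2, MACS2 and TAIR10 without role or version, and the peak threshold and the overlap required are not given in the sources used here. Gene positions came from the same tables (33078 loci on the 5 chromosomes), which carry no strand, and a RefSeq gene table (assembly TAIR10.1) gave names and biotypes only.

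The FPKM of all assembled pieces of a gene were added, and a gene without a piece in a library was taken as 0, which means not listed. Fragment numbers, derived from the deposited confidence bounds, sum to between 33176994 and 53385759 per library. The summed FPKM of a gene need not follow its fragments. ZF14, for example, had 5.4 FPKM from 156 fragments in brc1-2 library 3 but 2.36 FPKM from 218 in brc1-2 library 1. The 21038 genes that reached an FPKM of 1 in 3 or more of the 6 libraries were fitted as log2(FPKM + 1) with limma 3.58.1 (eBayes with a trend) in R 4.3.3, without covariates, and p-values were adjusted over all of them by the Benjamini-Hochberg method, with a threshold of 0.05. Python 3.11.15, numpy 2.4.6, pandas 2.3.3 and scipy 1.17.1 did the rest, and both steps were tested on simulated data.

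Groups and replicate numbers came from sample titles. Deviations from the group means of libraries sharing a number correlated at 0.0824, 0.0597 and 0.193, and no label gives a shared batch, so numbers were not taken as pairs. The members and gene lists were chosen with earlier results of these data known. Named genes were the 10 largest rises and 8 largest falls (adjusted p under 0.05, groups apart, FPKM of at least 5 in each library of the higher group), listed genes beside members, the pairs with the largest summed change and those in opposite directions, the widest and narrowest members, those at the 500 bp limit, and genes with at least 3 members. Alternatives changed the pseudocount, filter, scaling, summing of pieces, distance limit, edge used, peak width, libraries and replicate block.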

Additional observations from a re-analysis of the deposited data

How the results depend on the processing

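Membership followed the limit and the edge used. In the main fit 7.37% of all tested genes were higher and 8.86% lower. A 250 bp limit left 1214 peaks (median width 381 bp, distance 131 bp, 157 with genes on both sides) and 84 lower genes (6.87% of 1222 tested). A 1000 bp limit gave a width of 398 bp, a distance of 272 bp and 886 peaks with genes on both sides. It gave 244 lower genes (8.7% of 2803 tested) and a median log2 difference of 0.12. Distance from the nearer peak edge, over peaks overlapping no locus, left 1175 peaks (385 bp, 176 bp and 203 in the same order) with 195 higher genes (16.8%) and a median of 0.07. Peaks at or above the median width numbered 875 (482 bp, 201 bp and 170). Beside them 273 genes were higher (29.4% of 927 tested) and 62 lower (6.69%), with a median of 0.21. A pseudocount of 5 gave a median of 0.12. Leaving out 1 library gave 286 to 447 higher and 57 to 115 lower genes, 24.9 to 35.9% higher at up to 100 bp, 9.46 to 13.9% at 300 to 400 bp, 0 to 3 lower listed genes, and 55 to 81 nearer and 11 to 29 farther genes higher. In these fits 15.0 to 23.3% of tested flanking genes were higher and 2.99 to 5.99% lower. Over all tested genes, 3.43 to 6.53% were higher and 4.27 to 7.1% lower. With the replicate block, 419 flanking genes were higher (21.7%) and 135 lower (7.0%), where 6.28% and 7.92% of all tested genes were. Of these, 398 and 108 were also called without the block, and 21 farther genes were higher with it. PER4, PME2, HB7, AT1G67365 and AT5G58005 lost their calls with the block. PIL6 (-0.35, limma adjusted p = 0.0366) and IAA4 (0.60, limma adjusted p = 0.0448) gained one. Fewer samples were fitted when a library was left out; for the other changes the cause was not tested.

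Comparisons were counted only where the gene stayed in the fit. Of 977 comparisons of 77 named genes, 904 kept direction and side of the threshold, 54 lost the call, 12 gained it and 7 changed sign. Those 7 concern genes that did not pass the test: TOC1 (-0.02 with quantile normalization), IAA14 (0.04 with length-weighted pieces) and CYP707A4. Without 1 library, TOC1 ran from -0.03 to 0.04, IAA14 from -0.28 to 0.14 and CYP707A4 from -0.13 to 0.44. AT2G38905, AT5G05220, AT1G75600, AT3G15280 and RR18, listed in no brc1-2 library, failed the filter whenever an induced library was left out. Whether their rises depend on a single induced library was therefore not tested. LHY, CCA1, RVE1, NCED3, CYP707A3, CYP707A4, GolS2, AT1G67365 and RR18 were not fitted under the stricter FPKM filter. The planned motif search in promoters was not run, and no sequence was used. Depth limits low genes most, because a 0 means only that a gene was not listed in that library. The settings for annotated loci only and for genes without a peak of another class, the alternatives of the counts by distance, list and side, and the split by whether the interval reached the gene were chosen after seeing the data.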

Other observations

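Genes between paired peaks were described after their values were seen. Of the 85 genes with 2 member peaks, 80 had them at both ends and 5 at 1 end. Of the 71 tested with peaks at both ends, 28 rose and 3 fell in the induced line. Over all genes with 2 member peaks 39.5% of 76 tested were higher and 5.26% lower, beside 23.6% and 7.94% with 1 member peak, and 7.37% and 8.86% over all tested genes. AT1G27670 had 22.6, 24.7 and 23.6 FPKM in the induced line, against 2.88, 2.09 and 1.85 FPKM in brc1-2, with peaks 216 and 355 bp from its ends. RCI2B, a small membrane protein gene of cold response, had 683, 640 and 624 FPKM in the induced line, against 246, 185 and 187 FPKM in brc1-2. MIZ1, named for root hydrotropism, had 118, 126 and 130 FPKM in the induced line, against 48.0, 40.5 and 48.1 FPKM in brc1-2. All 3 genes passed limma's test. ERF107, an ethylene response factor gene, ran the other way, with 76.0, 81.1 and 80.5 FPKM in the induced line, against 209, 145 and 179 FPKM in brc1-2 (limma adjusted p = 0.00479).

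Of the 8 microRNA genes beside members, 3 were tested. MIR163 had 8.75, 6.62 and 7.49 FPKM in the induced line, against 31.9, 20.1 and 20.3 FPKM in brc1-2, and fell by 1.52 on the log2 scale (limma adjusted p = 0.00612). MIR156c, 123 bp from its peak, had 3.4, 3.18 and 3.51 FPKM in the induced line, against 2.91, 3.05 and 2.35 FPKM in brc1-2, and did not pass. MIR169a had 16.1, 13.8 and 22.7 FPKM in the induced line, against 22.9, 40.1 and 0 FPKM in brc1-2, and its groups overlapped. These are values of the primary transcripts' loci, not of mature microRNAs.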
